A study of Homo sapiens with 6 samples.

Results

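The genes described here encode the proteins of the cytosolic ribosome and their close relatives. They were chosen by symbol: names made of RPL or RPS and a number with an optional suffix, the stalk proteins, RPSA and FAU, protein coding only, without the RPS6K kinases and pseudogenes. The rule found 53 genes among the 14884 named genes measured, 34 with large subunit symbols and 19 on the small subunit side, counting FAU. In the RefSeq gene table the same rule finds 87 genes, and the 34 without a named feature, among them the stalk proteins RPLP0, RPLP1 and RPLP2 as well as RPSA, RPS27A, RPL5 and RPS4X, were not analysed here.

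Transcript levels came from 6 Affymetrix arrays of the established human line A549, grown from a lung adenocarcinoma, with 1 array for each combination of 3 temperatures with 0 or 3 Gy of X-rays. All cultures were first grown for 24 h at 37 °C. The control array held untreated cells, and the radiation array held cells given 3 Gy and kept for 3 h at 37 °C. The heated arrays held cells kept for 1 h at 41.5 °C or 44 °C and then for 3 h at 37 °C, and the combined arrays held cells irradiated straight after the same heating. How long the combined cultures and the control were then kept is not stated in the labels, so time in culture cannot be told apart from treatment there. Values are log2 levels, so that a difference of 1 is 2-fold. The labels do not state whether the 6 arrays stand for independent cultures, so p-values cover only the array-to-array spread, and that may be technical. They were obtained by fitting temperature and radiation additively to all 6 arrays, which gives 2 arrays at each temperature. Across the 6 arrays the epithelial keratins KRT18 and KRT7 lay between 11.43 and 11.59 and between 7.30 and 7.73, KRT8 between 6.28 and 6.83, KRT19 between 4.33 and 4.54 and EPCAM between 5.92 and 6.47. Among markers of other lineages, PECAM1 of endothelial cells lay between 3.02 and 3.79, VWF between 4.17 and 4.43 and CD14 of monocytes between 4.89 and 5.81. The alveolar genes SFTPC, SFTPB and NKX2-1 lay between 3.99 and 4.62, between 4.90 and 5.44 and between 4.67 and 4.84.

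The cytosolic ribosome has a small subunit, which reads the messenger RNA, and a large subunit, which joins amino acids into protein. Each subunit is built from ribosomal RNA and a set of small, mostly basic proteins that are made in balanced amounts. Most of their messenger RNAs begin with a C followed by a run of pyrimidines, the terminal oligopyrimidine (TOP) motif. Through this motif the growth pathway of mTOR and the binding protein LARP1 control how strongly these messages are translated and how stable they are. Heat shock is known to disturb ribosome assembly in the nucleolus and to lower the translation of many messages. An array of total RNA reads the amount of a message and not its translation. Ribosomal protein genes also have many processed pseudogenes of near-identical sequence, so that a feature named for one gene may pick up signal from its copies.

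The start of the transcript was read from the RefSeq promoter table of GRCh38.p14, which holds 250 bases before and 50 after each annotated start and matched 48 of the 53 genes. Windows of 30 bases before and 20 after the start are shown for members on which the heat results turn, with the pyrimidine run in capitals. The first 6 belong to genes that rose at 44 °C. The other windows belong to genes with low estimates at 44 °C. Of these, RPS24 and RPL22L1 carry a run, and RPL6 and RPS27L have none that begins within 3 bases of the annotated start. Among the genes that rose and are not shown, RPL9 and RPS26 have none there either, and RPL32, RPL35A and RPS16 carry one.
FAU (chr11:65122115-65122164, minus strand): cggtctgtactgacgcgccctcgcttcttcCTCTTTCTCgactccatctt
RPL37A (chr2:216498814-216498863, plus strand): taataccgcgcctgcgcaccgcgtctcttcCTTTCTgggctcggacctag
RPL31 (chr2:101002259-101002308, plus strand): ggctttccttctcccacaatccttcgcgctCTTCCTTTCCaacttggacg
RPS9 (chr19:54200828-54200877, plus strand): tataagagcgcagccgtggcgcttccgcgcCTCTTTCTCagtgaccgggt
RPL39 (chrX:119791611-119791660, minus strand): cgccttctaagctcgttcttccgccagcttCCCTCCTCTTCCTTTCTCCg
RPL24 (chr3:101686699-101686748, minus strand): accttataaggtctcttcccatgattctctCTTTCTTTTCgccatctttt
RPS24 (chr10:78033833-78033882, plus strand): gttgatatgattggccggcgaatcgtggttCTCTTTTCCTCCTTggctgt
RPL22L1 (chr3:170870176-170870225, minus strand): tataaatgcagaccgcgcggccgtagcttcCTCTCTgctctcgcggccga
RPL6 (chr12:112411423-112411472, minus strand): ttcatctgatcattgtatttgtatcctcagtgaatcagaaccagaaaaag
RPS27L (chr15:63157458-63157507, minus strand): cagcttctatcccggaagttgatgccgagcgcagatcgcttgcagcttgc

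A C within 3 bases of the annotated start, followed by at least 4 pyrimidines, was searched on the strand that reads like the RNA. It was present in 34 of the 48 promoters (70.8%), against 13.5% of 15842 promoters of protein-coding genes. With the C exactly at the annotated start the shares were 62.5% and 4.60%. Annotated starts can be several bases or an exon away from the start used in a cell, and for RPL6, RPL9, RPL10 and RPL11 the lack of a match says only that no such run begins within 3 bases of that start. Runs further away, such as one a few bases downstream in RPL9, were not counted. A TATAAA box on either strand in the 50 bases before the start was found in 4 member promoters (8.33%) and in 4.50% of all. A heat shock element, searched as GAANNTTCNNGAA or TTCNNGAANNTTC, the second being the first read on the other strand, was found in 0 of 48 and in 0.366% of all promoters over their whole length.

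At 44 °C against 37 °C, a minority of ribosomal protein genes rose and none was called lower. Of the 53 members 11 rose at an adjusted p under 0.05 (20.8%), where 3.57% of all named genes were called higher and 2.54% lower. With genes of below-median level left out before the fit, 12 of 49 members were higher and 1 lower (26.5% called), against 6.21% and 6.17% of the genes fitted. The median difference of the members was 0.10 on the log2 scale, against -0.04 for all named genes, and 35 of the 53 estimates were above 0. The rises were spread over both subunits, with 4 of 18 small subunit proteins (median 0.15) and 7 of 28 large subunit proteins (median 0.11), whereas 0 of 7 paralogs passed (median -0.10). At an unadjusted p under 0.05 the members counted 15 higher (28.3%) and 4 lower (7.55%), and all named genes 8.57% higher and 11.9% lower. Equal masses of RNA from whole cultures were compared, so fewer cells and less RNA per cell cannot be told apart here. The split of calls moved with scaling. A further quantile normalization and median centring of the arrays each gave 9 higher and 1 lower, the lower one being RPL6. The members' median was then 0.06 and 0.05, against -0.07 and -0.09 for all named genes, with 32 estimates above 0 in each.

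**Figure D1:**
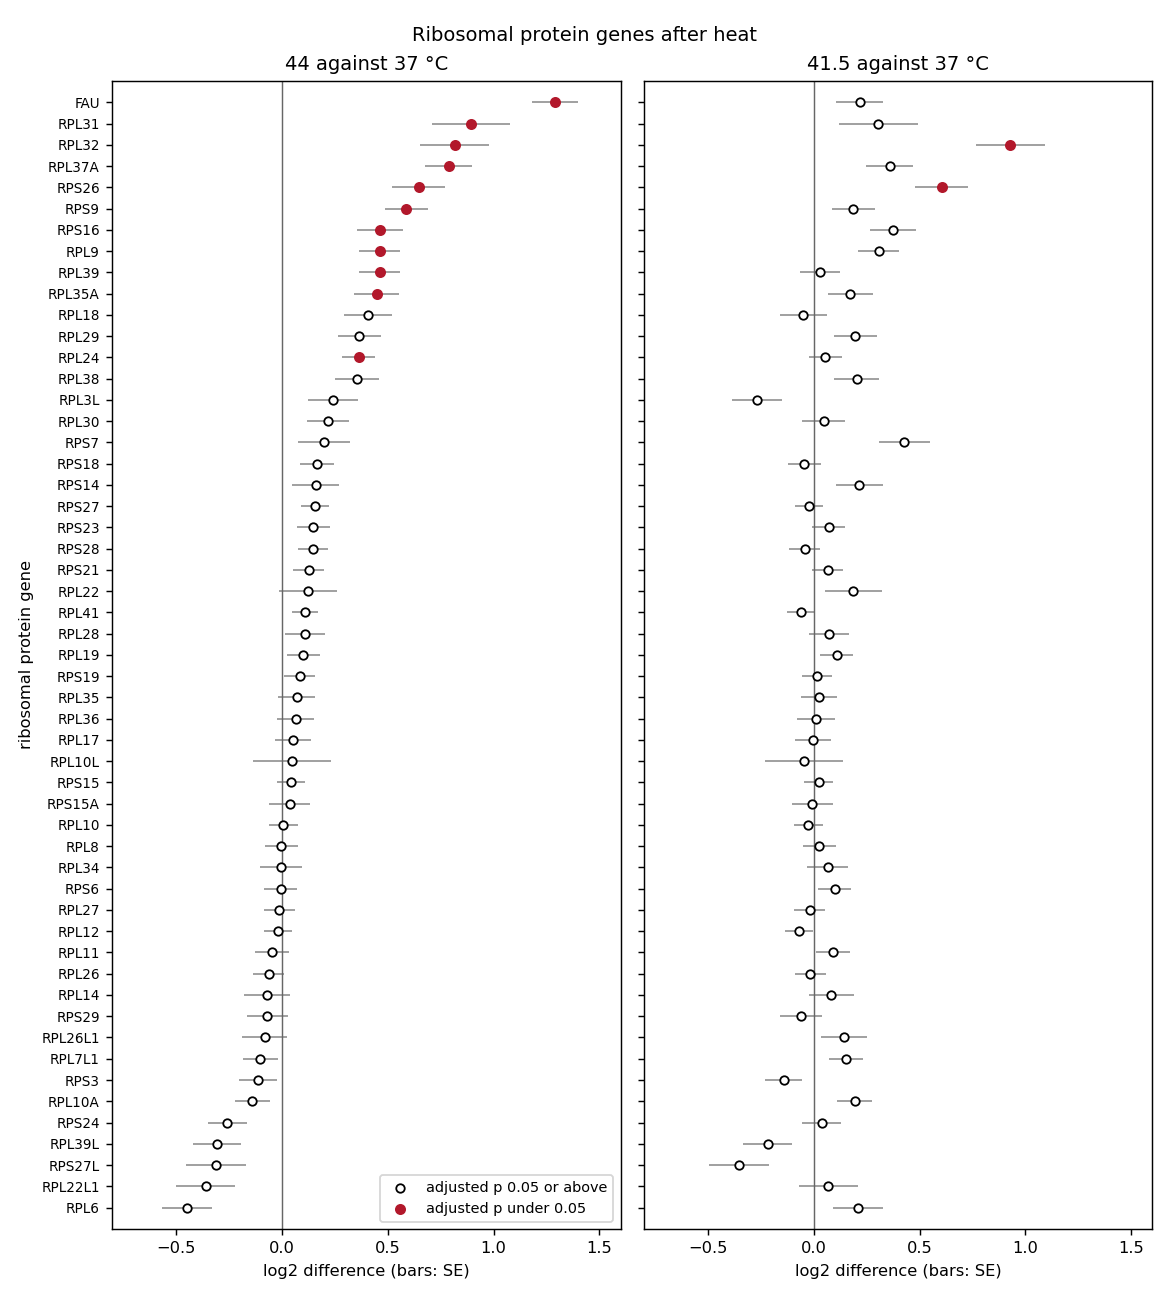
Estimated log2 difference of each of the 53 ribosomal protein genes at 44 °C (left) and 41.5 °C (right) against 37 °C, from the additive fit to 6 arrays; bars are standard errors and filled points have an adjusted p under 0.05. The 11 filled points at 44 °C run from RPL24 (0.36) to FAU (1.29), and the 2 at 41.5 °C are RPL32 and RPS26.

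FAU, which encodes a ubiquitin-like domain fused to the small subunit protein eS30, had the largest rise of the group. The control array read 6.06 on the log2 scale for FAU and the array of 3 Gy alone 6.23, the 41.5 °C arrays without and with 3 Gy 6.31 and 6.41, and those at 44 °C 7.52 and 7.35. Both 44 °C arrays thus lay well above the other 4, which spanned a narrow range. The model gave a rise of 1.29 ± 0.11 (SE, 2 arrays at each temperature), or 2.45-fold, with an adjusted p of 6.29e-05 in limma. FAU was also the only member that stayed called whichever of the 6 arrays was left out, with adjusted p up to 0.00961 without the control.

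Among the small subunit proteins, RPS9, RPS16 and RPS26 rose beside FAU. RPS9 is an early-binding protein of the small subunit body. Its levels were 6.50 and 6.65 at 37 °C without and with 3 Gy, 6.77 and 6.76 at 41.5 °C, and 7.23 and 7.10 at 44 °C, a rise of 0.59 ± 0.10 (adjusted p = 0.00681). The order of the temperatures was the same at both doses. RPS26, which lies at the channel through which the message leaves the small subunit, rose by 0.65 ± 0.13 (adjusted p = 0.0133). It stood at 5.63 and 5.81 at 37 °C and at 6.36 and 6.37 at 44 °C, but the 41.5 °C arrays, at 6.11 and 6.54, overlapped the 44 °C values. RPS16, a protein of the small subunit head, rose by 0.46 ± 0.11 (adjusted p = 0.0355), from 8.49 and 8.22 to 8.75 and 8.88. Most of its rise lay between the irradiated arrays, since the 37 °C array with 3 Gy was the lowest of all. At the other end, RPS24 did not pass (-0.26 ± 0.09, adjusted p = 0.140), and RPS6, the protein phosphorylated by the S6 kinases, ranged only from 8.26 to 8.48 over the 6 arrays.

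The large subunit rises were led by RPL31, RPL32 and RPL37A. RPL37A, a zinc-binding protein, was clearly separated: 5.58 and 5.67 at 37 °C without and with 3 Gy, 5.92 and 6.05 at 41.5 °C, and 6.43 and 6.39 at 44 °C. Its rise at 44 °C was 0.79 ± 0.11 (adjusted p = 0.00204), and both doses showed the same order of temperatures. RPL31, which sits near the exit of the tunnel for the new protein chain, rose by 0.89 ± 0.18 (adjusted p = 0.0190). Its level was 4.18 and 4.26 at 37 °C, 4.61 and 4.44 at 41.5 °C, and 4.83 and 5.40 at 44 °C, so that the combined 44 °C array stood highest and the pair at 44 °C differed by 0.57. RPL32 rose by 0.82 ± 0.16 (adjusted p = 0.0155), from 5.42 and 4.76 at 37 °C to 5.88 and 5.94 at 44 °C. Here the spread lay within the unheated pair, where the irradiated array was 0.66 below the control.

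The other 4 large subunit rises were smaller and of nearly one size. RPL9, which lies near the site where translation factors bind, rose by 0.46 ± 0.10 (adjusted p = 0.0185), from 6.77 and 6.93 to 7.34 and 7.29. RPL39, the small basic protein that lines the exit tunnel, rose by 0.46 ± 0.10 (adjusted p = 0.0192), from 7.77 and 7.93 to 8.34 and 8.27, while its 41.5 °C arrays at 7.97 and 7.79 overlapped those at 37 °C. RPL35A, mutated in some families with Diamond-Blackfan anaemia, rose by 0.45 ± 0.11 (adjusted p = 0.0359), from 7.04 and 7.19 to 7.69 and 7.43. RPL24, which forms a bridge between the subunits, rose by 0.36 ± 0.08 (adjusted p = 0.0229), from 8.18 and 8.14 to 8.48 and 8.57. In each of these 4 genes both 44 °C arrays were above both 37 °C arrays. RPL18 (0.41, adjusted p = 0.0636), RPL29 (0.37, adjusted p = 0.0621) and RPL38 (0.35, adjusted p = 0.0838) had estimates of the same size and did not pass.

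RPL6 had the lowest estimate of the group at 44 °C against 37 °C, -0.45 ± 0.12, and did not pass as deposited (adjusted p = 0.0560). It passed as lower after quantile normalization (-0.49, adjusted p = 0.0336) and after median centring (-0.50, adjusted p = 0.0410). Its levels were 7.10 and 7.05 at 37 °C, 7.20 and 7.37 at 41.5 °C, and 6.41 and 6.85 at 44 °C without and with 3 Gy, so both severely heated arrays were the lowest 2 of the 6. Without the control the estimate was -0.27, and without the array of 44 °C alone it was -0.26.

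Of the 10 rises beside FAU, each was lost when some single array was left out. The count at 44 °C against 37 °C was 3 without the control (FAU, RPL32 and RPS16), 1 without the array of 3 Gy alone (FAU), and 7 without the array of 44 °C alone (6 higher and 1 lower). The lower one there was RPS27L (-0.60, adjusted p = 0.0188), which did not pass with all arrays. The count was 8 (7 higher and 1 lower) without the combined 44 °C array, and 14 (13 higher and 1 lower) without either 41.5 °C array. The share of all named genes called, 6.11% with all arrays, moved as well: it was 1.77% without the control, 1.82% without the array of 3 Gy alone, 4.43% and 4.51% without the 44 °C arrays alone and with 3 Gy, and 8.14% and 8.06% without those at 41.5 °C. Leaving out 1 array also moved 4 of the 11 called estimates by more than 1.5-fold, to 0.59 for RPL31 without the combined 44 °C array, to 0.52 for RPL32 and 0.24 for RPS16 without the array of 3 Gy alone, and to 0.29 for RPL35A without the control. RPL37A was lost only without the control or without the array of 3 Gy alone, with adjusted p up to 0.0673. Moderation that ignored the intensity trend left 2 calls, FAU and RPL37A, beside 2.72% of all named genes. A fit of all 53617 features together left 3, FAU, RPL37A and RPS9, beside 2.55% of all named genes.

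**Figure D2:**
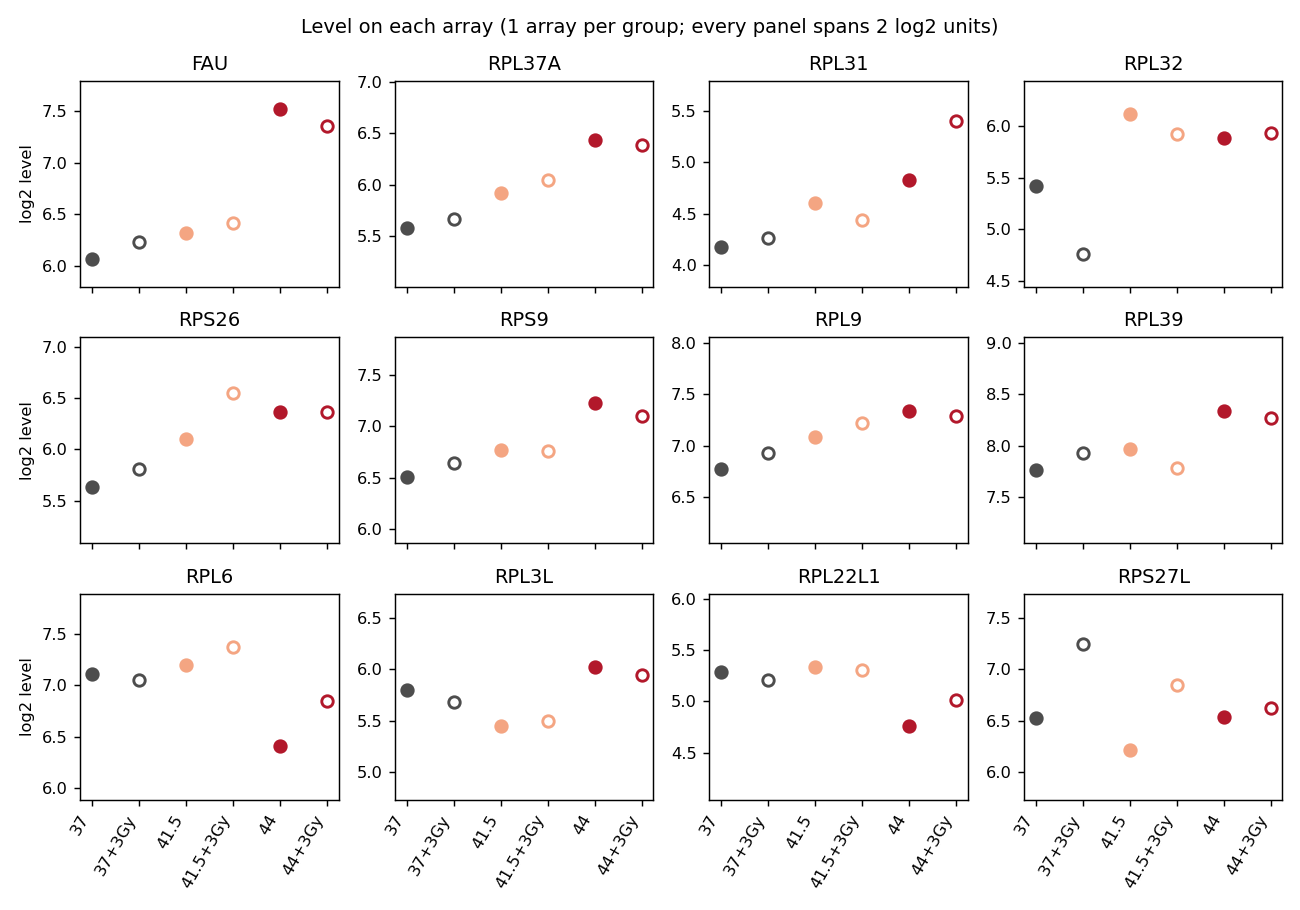
Log2 level of 12 members on each of the 6 arrays, at 37, 41.5 and 44 °C without (filled) and with (open) 3 Gy, 1 array per group; every panel spans 2 log2 units. Both 44 °C arrays stand apart in FAU and RPL37A, the low value of RPL32 at 37 °C with 3 Gy is 4.76, and RPS27L is highest at 7.25 in the same array.

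At 41.5 °C against 37 °C only RPL32 and RPS26 rose, and 0 members fell. That is 3.77% of the 53, where 2.18% of all named genes were called higher and 1.10% lower. With genes of below-median level left out, 2 of 49 members were higher and 0 lower (4.08% called). Of the genes fitted there, 6.07% were higher and 3.33% lower (9.41% called). The median of the members was 0.07, against -0.00 for all named genes, with 36 estimates above 0. At an unadjusted p under 0.05 there were 7 members higher (13.2%) and 2 lower (3.77%), and 9.16% and 7.94% of all named genes. After quantile normalization the members' median was 0.02, with 29 estimates above 0. RPL32 rose by 0.93 ± 0.16, or 1.90-fold (adjusted p = 0.0152), to 6.12 and 5.92 from the 5.42 and 4.76 given above, so that its 41.5 °C and 44 °C values overlapped. RPS26 rose by 0.60 ± 0.13, or 1.52-fold (adjusted p = 0.0284). Neither gene passed without the control, without the array of 3 Gy alone or without the combined 41.5 °C array, where the count of members called was 0 and the adjusted p reached 0.273 for RPL32 and 0.329 for RPS26. Without the array of 41.5 °C alone the count was 3, with RPS16 added.

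The next estimates at 41.5 °C did not pass. RPS7, one of the ribosomal proteins that bind MDM2, had 0.43 ± 0.12 (adjusted p = 0.0955), RPS16 0.37 (adjusted p = 0.106) and RPL37A 0.36 (adjusted p = 0.122). FAU, which led at 44 °C, had 0.22 ± 0.11 (adjusted p = 0.360). The lowest estimates belonged to 3 paralogs: RPS27L at -0.35 (adjusted p = 0.235), RPL3L at -0.27 (adjusted p = 0.277) and RPL39L at -0.22 (adjusted p = 0.388).

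Set directly against 41.5 °C, 44 °C gave 9 calls among the members (17.0%), 7 higher and 2 lower, where 4.90% of all named genes were higher and 7.23% lower. With genes of below-median level left out, 10 of 49 members were higher and 3 lower (26.5% called), close to the 23.9% of the genes fitted. This comparison shares the 44 °C and 41.5 °C arrays with those above, so its calls are not independent of them. The members' median was 0.04, against -0.02 for all named genes. The split depended on centring: centred on the array medians, 4 members were higher and 5 lower and their median was -0.01, against -0.08 for all named genes, with RPL22L1, RPL7L1 and RPS24 joining the lower ones.

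FAU again had the largest difference, 1.07 ± 0.11 (2.11-fold, adjusted p = 0.000232). RPL39 (0.43 ± 0.10, adjusted p = 0.0159), RPL37A (0.43 ± 0.11, adjusted p = 0.0315), RPS9 (0.40 ± 0.10, adjusted p = 0.0286) and RPL24 (0.31 ± 0.08, adjusted p = 0.0300) had also risen against 37 °C. RPL18 and RPL3L had no call against 37 °C with all arrays and genes in the fit, although RPL18 passed there under some alternatives. RPL18, a large subunit core protein, stood at 6.54 and 6.58 at 37 °C, 6.51 and 6.51 at 41.5 °C, and 6.79 and 7.15 at 44 °C, higher by 0.46 ± 0.11 (adjusted p = 0.0258), and by 0.29 without the combined 44 °C array. RPL3L, the muscle-type paralog of RPL3, stood at 5.80 and 5.68 at 37 °C, 5.45 and 5.50 at 41.5 °C, and 6.02 and 5.94 at 44 °C, higher by 0.51 ± 0.12 (adjusted p = 0.0184). Its 41.5 °C arrays were the lowest 2 and its 44 °C arrays the highest 2 of the 6.

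RPL6 and RPL10A were lower at 44 °C than at 41.5 °C. The difference of RPL6 was -0.66 ± 0.12, a fold of 0.634 (adjusted p = 0.00608), and that of RPL10A, a protein of the L1 stalk, was -0.33 ± 0.08 (adjusted p = 0.0259). RPL10A stood at 7.92 in both 37 °C arrays, at 8.18 and 8.05 at 41.5 °C and at 7.79 and 7.77 at 44 °C, so its 37 °C values lay between those of the heated arrays. FAU and RPL6 passed whichever array was left out, RPL6 with adjusted p up to 0.0450. RPL10A, RPL24 and RPL37A passed in 0 of the 6 such fits, RPS9 in 1, RPL18 and RPL3L in 2 each and RPL39 in 4. With any 1 array left out, the share of members called was below or close to that of all named genes. The members' median was then between 0.02, without the array of 41.5 °C alone, and 0.07, without the combined 41.5 °C array.

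The paralogs and relatives, of which 7 are members, held 1 call in the 3 temperature comparisons together, that of RPL3L. RPL22L1, the paralog of RPL22, had levels of 5.29 and 5.21 at 37 °C, 5.33 and 5.30 at 41.5 °C, and 4.76 and 5.01 at 44 °C. Both 44 °C arrays were the lowest, but the estimates of -0.36 against 37 °C (adjusted p = 0.176) and -0.43 against 41.5 °C (adjusted p = 0.0793) did not pass. RPL39L, a relative of RPL39 known from germ cells, stood at 6.51 and 6.49 at 37 °C, 6.29 and 6.27 at 41.5 °C, and 6.05 and 6.34 at 44 °C (-0.31, adjusted p = 0.161), whereas RPL39 itself rose. RPL26L1 (5.95 to 6.36 over the arrays) and RPL7L1 (7.60 to 7.89) had no call as deposited, and RPL10L, a retrogene paralog of RPL10 used in the testis, had the lowest mean level of all members, 3.16. The difference between a paralog and its parent gene was not tested.

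Radiation gave no call: 0 of the 53 members and 0.00% of all named genes passed for 3 Gy against 0 Gy in limma, where 3 arrays stand on each side. At an unadjusted p under 0.05 there were 2 members, RPS27L and RPL19, and 733 genes. The median over the members was 0.03.

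RPS27L, a paralog of RPS27 known as a direct target of p53, had the largest radiation estimate, 0.48 ± 0.12 (unadjusted p = 0.00202 in limma, adjusted p = 0.609). It stood at 6.53 in the control and 7.25 after 3 Gy alone, at 6.22 and 6.85 at 41.5 °C, and at 6.53 and 6.63 at 44 °C. With 3 Gy it was therefore higher by 0.72 at 37 °C, by 0.63 at 41.5 °C and by 0.09 at 44 °C. These are differences of single arrays, and the smaller value at 44 °C was not tested. Without the array of 44 °C alone the estimate was 0.68 ± 0.10 (adjusted p = 0.00732), and without the combined 44 °C array 0.68 ± 0.10 (adjusted p = 0.00756), so that the pair at 44 °C no longer entered the estimate, and RPS27L was then the 1 member called beside 0.571% of all named genes. No other member passed in any fit of radiation that was run.

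RPL19 had 0.20 ± 0.06 (adjusted p = 0.853), with differences of 0.22, 0.29 and 0.08 at 37, 41.5 and 44 °C, and a second feature for this gene gave -0.02. RPS26 had 0.20 and RPL32 -0.27, the latter from differences of -0.66, -0.19 and 0.06 at the 3 temperatures. In 14 of the 53 members the difference had one sign at all 3 temperatures. The matching share of all named genes is not given here, so this count is a description only. The median over the members was 0.02 at 37 °C, 0.05 at 41.5 °C and -0.01 at 44 °C.

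**Figure D3:**
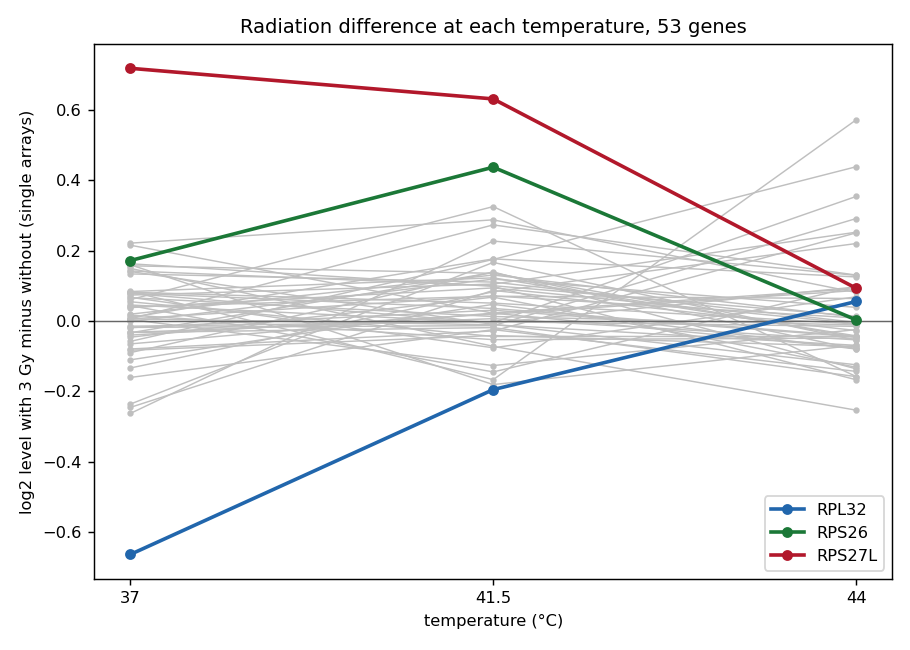
Log2 level with 3 Gy minus without at 37, 41.5 and 44 °C for each of the 53 members, single arrays with no replicate; RPS27L, RPL32 and RPS26 are coloured. RPS27L lies highest at 37 °C (0.72) and 41.5 °C (0.63) and stands at 0.09 at 44 °C, while RPL32 has the lowest value at 37 °C, -0.66.

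Each treated array was also set against the control alone. These single-array differences share the control and carry no test. At 44 °C alone 6 members were at least 1.5-fold higher and 1 lower, where 7.21% of all named genes differed by that much in either direction. The 6 were FAU (1.46), RPL37A (0.85), RPS26 (0.73), RPS9 (0.72), RPL31 (0.65) and RPL35A (0.65), and the lower one was RPL6 (-0.70). At 44 °C with 3 Gy 6 were higher and 0 lower, against 6.48% of all named genes: FAU (1.29), RPL31 (1.22), RPL37A (0.81), RPS26 (0.73), RPL18 (0.61) and RPS9 (0.60). At 41.5 °C alone only RPL32 was (0.69), against 4.13% of all named genes, and with 3 Gy only RPS26 (0.91), against 5.80%. After 3 Gy alone RPS27L was higher and RPL32 lower, against 3.02% of all named genes. The median differences of the members were 0.12 at 44 °C alone and 0.11 with 3 Gy, 0.06 at 41.5 °C alone and 0.12 with 3 Gy, and 0.02 after 3 Gy alone.

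A departure from additivity, here the difference of the combined array from the control less the differences of heat and of radiation given singly, has 1 value per gene and temperature and no error of its own. At 44 °C the largest belonged to RPL32 (0.72), RPS27L (-0.63), RPL6 (0.50) and RPL31 (0.49). At 41.5 °C they were RPS16 (0.49), RPL32 (0.47), RPS14 (0.40) and RPL39 (-0.34). The array of 3 Gy alone enters each of these values, and on it RPS27L was the highest and RPL32 and RPS16 the lowest of the 6 arrays.

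Within the group the changes were unequal. Of the 53 members 15 were called in at least 1 temperature comparison and 38 in none. The share of all named genes called in at least 1 was not counted, so the 15 have no matching share to be set against. In the single comparisons, which are not the same measure, the share of all named genes called was 6.11% at 44 °C against 37 °C. It was 3.29% at 41.5 °C against 37 °C and 12.1% at 44 °C against 41.5 °C. FAU, RPL24, RPL37A, RPL39 and RPS9 were called at 44 °C against both other temperatures. By mean level over the arrays, the lowest 18 members (3.16 to 6.68) held 5 rises at 44 °C against 37 °C with a median of 0.16, and the middle 18 (6.83 to 8.30) held 5 with a median of 0.13. The highest 17 (8.31 to 11.54) held 1, RPS16, with a median of 0.05, and no estimate among them was larger than 0.46. RPL41, RPL12 and RPS28 had the highest mean levels, between 11.45 and 11.54. The part of signal level in these counts was not tested.

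For the 4 members with more than 1 feature, the others can be set beside the one used. The second feature of RPL39 gave 0.62 at 44 °C against 37 °C beside the 0.46 of the first, and that of RPS18 gave 0.38 beside 0.17. The 5 features of RPL41 gave 0.11, 0.23, -0.07, 0.11 and -0.31, and so disagreed in sign. Those of RPL19 gave 0.10 and -0.03.

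The pyrimidine start was common among the genes that rose and among those that did not: 9 of 11 promoters of members called higher at 44 °C (81.8%) and 25 of 37 of those not called (67.6%). The median estimate at 44 °C was 0.15 over the 34 members with such a start and -0.00 over the 14 without, a description with no test. The 14 include RPL6 and the paralogs RPL10L, RPL26L1, RPL7L1 and RPS27L. In other genes of the TOP class the order was reversed, with -0.02 over 6 with the start and 0.10 over 2 without. The medians were -0.01 and -0.07 for ribosome assembly factors, and -0.03 and -0.13 for mitochondrial ribosomal proteins. RPL9 and RPS26 rose without a run that begins within 3 bases of the annotated start, although both windows hold one further downstream, while RPS24 and RPL22L1, shown above with runs in capitals, had estimates below 0. None of the 11 had a TATAAA box in the window searched.

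Of 10 measured translation factors and other genes of the TOP class, 0 were called in limma at 44 °C against 37 °C (median 0.00) and 0 at 41.5 °C (median 0.10). At an unadjusted p under 0.05 there were 1 higher and 1 lower at 44 °C, and 2 higher at 41.5 °C. The highest at 44 °C was NACA, a chaperone of new protein chains (0.25, adjusted p = 0.223), and the lowest HNRNPA1 (-0.28, adjusted p = 0.139). HNRNPA1, an RNA-binding protein, and EEF1D, an elongation factor subunit, were lower at 44 °C than at 41.5 °C, by -0.48 ± 0.10 (adjusted p = 0.0122) and -0.40 ± 0.11 (adjusted p = 0.0355). HNRNPA1 did not pass without the array of 41.5 °C alone or of 44 °C alone, and EEF1D passed in 0 of the 6 fits with an array left out. Whether the ribosomal protein genes differed from the other TOP genes was not tested. Of 8 measured regulators of these messages, TIA1, a protein that binds TOP messages under stress, fell at 44 °C by 0.56 ± 0.09 on the log2 scale (adjusted p = 0.00520), which did not pass without the control or the array of 3 Gy alone (adjusted p up to 0.127).

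Ribosome assembly factors, which work in the nucleolus and cytoplasm to build the subunits, were also measured. At 41.5 °C against 37 °C 12 of 48 measured factors rose and 0 fell (25.0% called), with a median of 0.26. Of all named genes 2.18% were called higher and 1.10% lower. Those highest were RRS1 (0.78 ± 0.09, adjusted p = 0.00152), NIP7 (0.72 ± 0.08, adjusted p = 0.00152), RRP12, GRWD1 and RIOK1. This count was 0 without the control and 0 without the array of 3 Gy alone, 7 without the array of 41.5 °C alone, and 18 and 17 without the arrays of 44 °C alone and with 3 Gy. Without the control or the array of 3 Gy alone the share of all named genes called fell as well. The count of factors was 21 without dim genes, where 9.41% of the genes fitted were called. It was 0 without the intensity trend and 0 with all features in one fit, beside 0.0605% and 0.0941% of all named genes. At 44 °C against 37 °C 2 rose, NOP58 of the box C/D snoRNPs (0.75 ± 0.07, adjusted p = 8.45e-05) and NOP16, and 4 fell, WDR75, NOP2, RRS1 and DDX10, with a median of -0.04. Without the control these were 1 and 0, without the array of 3 Gy alone 1 and 1, and without the combined 44 °C array 1 and 2. After quantile normalization 2 rose and 7 fell, and after median centring 1 rose and 5 fell. From 41.5 °C to 44 °C 23 were lower and 1, NOP58, was higher, with a median of -0.27, and RRS1 differed by -1.24 ± 0.09. Of all named genes 7.23% were lower and 4.90% higher. The count of lower factors was 14 to 20 when 1 array was left out, and 14 without the array of 41.5 °C alone. It was 12 without the intensity trend, where 2.65% of all named genes were lower.

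Mitochondrial ribosomal proteins belong to the separate ribosome of the mitochondrion. Of 74 measured, MRPL18 rose at 44 °C (0.78 ± 0.09, adjusted p = 0.000664) and 0 passed as lower, with a median of -0.13. At an unadjusted p under 0.05 in limma 22 were lower at 44 °C (29.7%) and 2 higher (2.7%). Of all named genes 11.9% were lower and 8.57% higher at that threshold. MRPL18 and MRPS30 rose at 41.5 °C, with a median of 0.07. The unadjusted counts there were 12 higher (16.2%) and 0 lower, against 9.16% and 7.94% of all named genes. At 44 °C 4 were lower beside MRPL18 after quantile normalization, 3 after median centring and 4 without either 41.5 °C array. At 41.5 °C 0 passed without the control or without the array of 3 Gy alone. From 41.5 °C to 44 °C 15 were lower and 0 higher (20.3% called), with a median of -0.19, where 7.23% of all named genes were lower and 4.90% higher. With 1 array left out, 5 to 9 were lower, the fewest without the combined 41.5 °C array. Without the intensity trend 3 were lower, and with all features in one fit 2, where 2.65% and 2.22% of all named genes were lower. At 44 °C against 37 °C the share called was thus 20.8% of the cytosolic ribosomal proteins and 12.5% of the assembly factors. It was 1.35% of the mitochondrial ribosomal proteins and 6.11% of all named genes. These shares were not tested against each other.

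**Figure D4:**
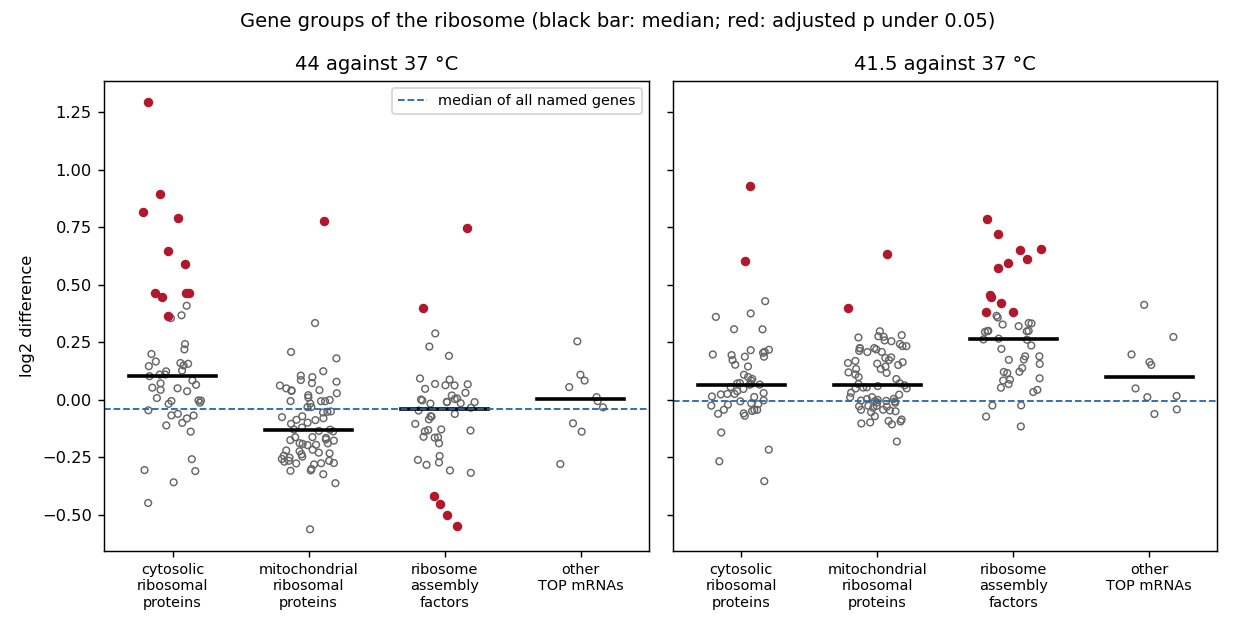
Log2 difference at 44 °C (left) and 41.5 °C (right) against 37 °C for 53 cytosolic ribosomal proteins, 74 mitochondrial ribosomal proteins, 48 ribosome assembly factors and 10 other TOP genes; black bars are medians, red points have an adjusted p under 0.05 and the dashed line is the median of all named genes. At 44 °C the red points of the cytosolic ribosomal proteins are all above 0, and at 41.5 °C the assembly factors have the highest median, 0.26.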

How the data were processed

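Total RNA of 6 A549 samples, 300 ng each per the labels' protocols, was measured on 1 array per group. Per the submitters' processing notes the authors read the arrays with Affymetrix Expression Console 1.1 and summarised them by RMA, which left log2 values in the deposited table. The probes' genome build was not given in the sources used here. RMA makes the distributions of the arrays alike, so a shift of all transcripts is not seen.

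There are 53617 features, of which the platform annotation gives 16098 exactly 1 gene symbol, all matched to RefSeq (GRCh38.p14), and 37519 are unnamed here. For the 779 genes with several features the one with the highest mean was used, giving 14884 genes. Temperature (as a factor) and radiation were fitted together with limma 3.58.1 (R 4.3.3) and an intensity trend in eBayes, over the 6 arrays. Noise and any departure from additivity both enter the 2 residual degrees of freedom (prior degrees of freedom 8.06, median residual SD 0.113). The number of arrays limits the precision, and the median standard error was 0.138 for temperature and 0.113 for radiation. P-values are two-sided, adjusted by Benjamini-Hochberg over all 14884 genes, with 0.05 as the threshold for a call. The fit was tested on simulated data. Single-array differences were counted at 1.5-fold and carry no test.

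The members and gene lists were chosen with earlier results of these data known. Genes named are the called members of each comparison (up to 12 in each direction), the 3 highest and 3 lowest estimates, every fusion and paralog member, the 4 largest departures from additivity at each temperature, the 3 highest and lowest mean levels, and in the other lists the called genes (up to 5 in each direction) or else the extremes. RPS6, RPL29, RPL38 and the next estimates below the threshold were added after their values were seen. Alternatives tried were moderation without the trend, a further quantile normalization, median centring, the mean of a gene's features, no dim genes, all features in one fit, no radiation term, and each array left out.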

Additional observations from a re-analysis of the deposited data

Results flagged for a closer look

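RPS27L, the p53-responsive paralog, moved in opposite directions between 41.5 °C and 44 °C at the 2 doses: the difference was 0.31 without radiation and -0.23 with 3 Gy. RPS16 moved in opposite directions with radiation at 37 °C and 41.5 °C, by -0.26 and 0.23. Both rest on pairs of single arrays, and the difference between the effects was not tested.

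In 4 members the estimates at 41.5 °C and 44 °C against 37 °C had opposite signs, and the contrast between the temperatures passed in limma. None of their estimates against 37 °C passed as deposited with all arrays and genes in the fit. That of RPL18 at 41.5 °C was only -0.05 ± 0.11. The contrast was -0.66 for RPL6 (adjusted p = 0.00608) and -0.33 for RPL10A (adjusted p = 0.0259), which stood higher at 41.5 °C than at 44 °C. It was 0.51 for RPL3L (adjusted p = 0.0184) and 0.46 for RPL18 (adjusted p = 0.0258), which stood lower at 41.5 °C. Of these only RPL6 passed with any 1 array left out.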

How the results depend on the processing

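The counts of members called were 11 at 44 °C against 37 °C, 2 at 41.5 °C against 37 °C, 9 at 44 °C against 41.5 °C and 0 for 3 Gy. Without the intensity trend they were 2, 0 and 1 for the temperature comparisons (3.77%, 0.0% and 1.89% of the members). Of all named genes 2.72%, 0.0605% and 5.31% were called there. With all features in one fit, where many more features are tested, they were 3, 0 and 1 (5.66%, 0.0% and 1.89%). Of all named genes 2.55%, 0.0941% and 4.27% were called in that fit. Without a radiation term the 41.5 °C count was 1. With 1 array left out the counts ranged from 1 to 14, from 0 to 3, from 2 to 5 and from 0 to 1. All 22 calls on single members kept their direction under every alternative that was run, but only that of FAU at 44 °C kept its side of the threshold in all of them against both other temperatures. The radiation term already compares temperatures within dose, and the labels carry no replicate numbers. The cause of these differences was not tested. Since genes with lower signal have larger standard errors, small changes in dim members such as RPL10L could go unseen at 2 arrays per temperature.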

Other observations

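Box C/D and H/ACA snoRNAs, which guide changes to ribosomal RNA, lie inside 8 of the 53 genes in RefSeq: RPL10, RPL12, RPL17, RPL28, RPL30, RPL32, RPL39 and RPS3. At 44 °C against 37 °C 2 of these 8 rose, RPL32 and RPL39, with a median of 0.08, and 9 of the other 45 rose, with a median of 0.10. The snoRNAs themselves were not analysed here. Annotated genes, these snoRNAs included, overlap 24 members by position without regard to strand, among them TBC1D8 at RPL31, CAND2 at RPL32 and DRC9 at RPL35A. Signal shared with those neighbours was not tested.

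Of 14 measured factors of ribosome quality control, 1 fell at 44 °C against 37 °C, NEMF, which marks stalled large subunits (-0.40 ± 0.09, adjusted p = 0.0301 in limma), and it did not pass without the control, the array of 3 Gy alone or either 44 °C array. Among all named genes 2.54% were called lower at 44 °C against 37 °C. Of 8 measured ribosomal proteins linked to p53 and MDM2, 0 were called in any comparison in limma with all 6 arrays. At an unadjusted p under 0.05, 0 passed at 44 °C against 37 °C, 2 at 41.5 °C (1 higher and 1 lower) and 1 for 3 Gy (RPS27L). At 44 °C their estimates ran from -0.31 for RPS27L to 0.20 for RPS7. Only 3 of 18 genes of RNA polymerase I and its factors were measured, and 0 were called in limma. At an unadjusted p under 0.05 there were 0 at 44 °C against 37 °C and 2 at 41.5 °C, 1 higher and 1 lower. Among all named genes 8.57% were higher and 11.9% lower at that threshold at 44 °C, and 9.16% and 7.94% at 41.5 °C. For 3 Gy the shares were 2.57% and 2.35%.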
